A study of Mus musculus with 8 samples.

Results

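The genes described here are 10 genes that adipocytes are known for: Adipoq, Plin1, Lep, Fabp4, Lpl, Cidec, Pparg, Lipe, Pnpla2 and Cd36. They were taken by symbol from a table of CAGE tag clusters of mouse facial skin, with every cluster given to each gene. CAGE sequences the capped 5′ ends of RNA, so a cluster of tags marks a place where transcription starts or where a capped end was otherwise read. All 10 symbols were in the table, with 33 of its 84475 clusters, among 16094 named genes. The series has lesional facial skin of 4 Cre-positive mice homozygous for floxed Ikk2 and non-lesional facial skin of 4 mice labelled as controls, all of the C57BL/6 strain at postnatal day 28. Ikk2 is the gene Ikbkb, which encodes a kinase of the NF-κB pathway. The Cre is written as Nestin-cre for the series and as Nectin-cre for the samples, and the genotype of the controls is given no further. The Nestin gene is known as a marker of neural progenitor cells, and which skin cells lost Ikk2 is not given. Lesion and genotype cannot be told apart in this design.

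The columns of values in the table carry names that match no label of a mouse, so they were not used. No level of any gene is given, the loss of Ikbkb was not checked, and lesional skin was not compared with control skin. What is described is where the starts of these genes lie, how wide they are and how they are spaced. A cluster in the table may come from either group of mice or from both.

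White adipocytes store triglyceride in a single lipid droplet, and skin holds them in a layer under the dermis. PPARγ is the nuclear receptor that drives their differentiation together with C/EBP factors. Lipoprotein lipase and CD36 bring fatty acids in, perilipin and CIDEC coat the droplet, and the lipases ATGL and HSL release fatty acids from it. Adiponectin and leptin are the hormones that these cells secrete.

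Several of the 10 genes are also active outside fat: Cd36, Fabp4 and Lpl in macrophages, muscle or the endothelium of small vessels, and Pparg in sebaceous glands. A cluster therefore places a start in the skin sample and not in a cell type. All 8 sebaceous, 7 endothelial, 7 macrophage and 7 skeletal muscle markers looked up beside them had a cluster too. Their part in the clusters of the 10 genes was not tested.

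The promoters that bear most on the start sites are shown first, each from 100 bases before to 20 bases after a RefSeq transcript start on GRCm38.p6. The clusters are on build mm9, and these positions are not theirs. Capitals mark motifs searched on both strands. These were the TATA box as TATAAA, the CCAAT box, which reads ATTGG from the opposite strand, and the GC box as GGGCGG, which then reads CCGCCC. The E-box was searched as CACGTG, the core of the C/EBP motif was searched as TTGCNNAA, and the PPAR-RXR direct repeat was searched as AGGTCA repeated after 1 base. Adipoq and Lep are shown as the hormone genes with a single cluster, Pparg for starts far apart, and Lipe for a pair of starts of different make-up.
Adipoq, plus strand, chr16:23146436-23146555: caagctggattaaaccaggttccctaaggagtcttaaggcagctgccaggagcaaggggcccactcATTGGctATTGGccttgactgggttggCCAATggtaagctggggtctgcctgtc
Lep, plus strand, chr6:29060121-29060240: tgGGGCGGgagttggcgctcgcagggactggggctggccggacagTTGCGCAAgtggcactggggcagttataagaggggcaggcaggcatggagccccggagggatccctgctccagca
Pparg, middle RefSeq start, plus strand, chr6:115362249-115362368: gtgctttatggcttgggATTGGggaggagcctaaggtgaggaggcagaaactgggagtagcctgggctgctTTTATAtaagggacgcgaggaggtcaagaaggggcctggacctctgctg
Pparg, downstream RefSeq start, plus strand, chr6:115421966-115422085: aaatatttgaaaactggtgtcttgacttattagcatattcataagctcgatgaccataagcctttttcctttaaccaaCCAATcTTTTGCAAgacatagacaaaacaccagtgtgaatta
Lipe, upstream RefSeq start, minus strand, chr7:25395968-25396087: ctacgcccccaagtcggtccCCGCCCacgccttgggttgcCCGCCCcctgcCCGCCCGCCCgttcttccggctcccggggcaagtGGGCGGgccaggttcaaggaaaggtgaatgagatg
Lipe, downstream RefSeq start, minus strand, chr7:25390093-25390212: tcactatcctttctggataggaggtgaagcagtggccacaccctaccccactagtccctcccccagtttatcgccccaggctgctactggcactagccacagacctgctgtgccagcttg

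Start sites of the 10 genes differed widely in number and width. Cidec and Cd36 had 7 clusters each, Pparg and Lipe had 4 each, Lpl had 3, and Plin1, Fabp4 and Pnpla2 had 2 each. Adipoq and Lep had 1 each. The median was 2.5 clusters per gene, against 2 over all named genes, of which 45.7% had a single cluster. None of the 33 clusters was shared with another gene. Of the 33, 18 (54.5%) spanned at least 10 bp and 15 spanned less, against 51.7% at 10 bp or more over all 46376 clusters with a gene. The widest cluster of a gene had a median span of 170 bp, against 110 bp over all named genes, whose quartiles were 67 and 159 bp. It reached 100 bp or more in 7 of the 10 genes, while 56.0% of all named genes did so. Genes are not replicates of a condition, so no test was made of these differences. Whether the number and width of clusters follow the number of tags of a gene was not tested, as no values were used.

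**Figure D1:**
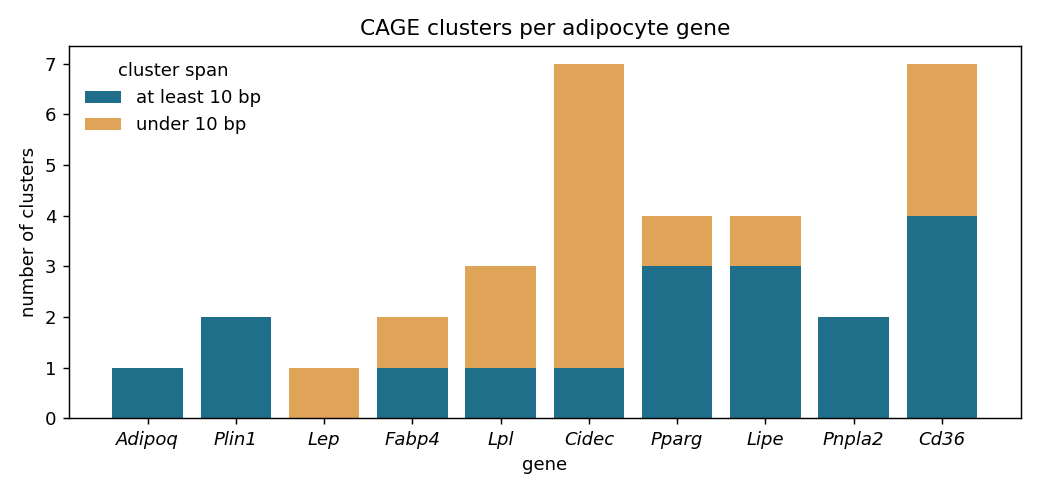
Number of CAGE clusters (vertical axis) given to each of the 10 adipocyte genes (horizontal axis), split by cluster span. Cidec and Cd36 have 7 clusters each, but 6 of those of Cidec are under 10 bp and Lep has no cluster of 10 bp or more.

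The hormone genes had a single cluster each. Adipoq, which encodes adiponectin, had 1 cluster of 83 bp at 23146602 to 23146685 of chromosome 16, plus strand, in mm9 coordinates. The widest cluster was narrower in 33.8% of named genes. Lep, which encodes leptin, had 1 cluster of 7 bp at 29010214 to 29010221 of chromosome 6, plus strand. No other of the 10 genes had so narrow a widest cluster, and 7.18% of named genes had a narrower one. Neither gene had another cluster, named or unnamed, within 5000 bp. GENCODE M21 lists 1 transcript with a consensus coding sequence for each of them, of 247 residues for Adipoq-201 and 167 residues for Lep-201.

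Their printed promoters also differed in letters. The Adipoq window held CCAAT at 3 places within the 34 bases before the start and none of the other motifs. The Lep window held GGGCGG 98 bases before the start and TTGCGCAA, a C/EBP core that reads the same on both strands, 55 bases before it. G and C made up 66.0% of the 300 bases of the Lep promoter.

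Pparg, the gene of PPARγ, had starts spread over 61265 bp of the plus strand of chromosome 6. A cluster of 171 bp ran from 115310882 to 115311053, with narrower ones of 2 bp and 19 bp at 115311084 and 115311274. The fourth cluster, of 101 bp, lay 60753 bp farther on, from 115372046 to 115372147. GENCODE places the starts of Pparg-202 and Pparg-201 at a distance of 61115 bp, which falls inside the 60993 to 61265 bp between points of the 2 wide clusters. By that spacing, the first wide cluster fits the start of Pparg-202, which codes for 475 residues. The other fits the start of Pparg-201, which codes for 505 residues and, on the annotation, begins in an intron of the longer transcript. These are the PPARγ1 and PPARγ2 forms, of which PPARγ2 is known as the form largely restricted to adipocytes.

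Another annotated start of Pparg matched, by spacing, a cluster without a gene name. This cluster of 43 bp on the same strand ran from 115312332 to 115312375, 1039 bp past the nearest named cluster of the gene. Its spacing from the first wide cluster, 1279 to 1493 bp, holds the 1341 bp between the annotated starts of Pparg-202 and Pparg-204. Its spacing from the last cluster, 59671 to 59815 bp, holds both the 59774 bp between Pparg-204 and Pparg-201 and the 59717 bp between the middle and downstream RefSeq starts. A second unnamed cluster, of 4 bp on the opposite strand, lay from 115312243 to 115312247 just before it. Another, of 2 bp, lay on the strand of the gene from 115353413 to 115353415, at a distance that falls in intron 2 of Pparg-202. The distance from the upstream RefSeq start to the others matched no pair of clusters.

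The Pparg promoters differed in base composition along the gene. G and C made up 80.3% of the 300 bases at the upstream RefSeq start, 62.7% at the middle one and 40.3% at the downstream one, against a median of 52.7% over 32851 promoters with quartiles of 45.7% and 61.7%. The first and last of these were the highest and lowest values among the 12 promoters of the adipocyte genes. The downstream window held CCAAT at 22 and at 144 bases before the start. It held TTTTGCAA, a C/EBP core on the reverse strand, at 16 bases and another C/EBP core at 215 bases before the start. The middle window was the single one of the 12 with TATAAA, on the reverse strand, 29 bases before the start. Read on the strand of the gene, the same stretch holds TATATAAG, which overlaps that match.

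Lpl, Fabp4 and Cd36 serve the uptake and carriage of fatty acids, and each had a wide cluster beside narrow ones. Lpl, which encodes the lipoprotein lipase that frees fatty acids from circulating triglyceride, had a cluster of 196 bp at 71404438 to 71404634 of chromosome 8, plus strand. Clusters of 3 and 5 bp flanked it at gaps of 25 and 11 bp, so that all 3 became 1 when neighbours within 100 bp were joined. Fabp4, which encodes the fatty acid carrier of adipocytes, had the widest cluster of the 10 genes, 210 bp at 10208469 to 10208679 of chromosome 3, minus strand. The widest cluster was narrower in 97.5% of named genes. The other cluster of Fabp4, of 2 bp, lay 421 bp downstream, at a distance that falls in intron 1 of Fabp4-201.

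Fabp4 also had 3 unnamed clusters on its own strand. They spanned 137, 27 and 2 bp, beginning with 10205987 to 10206124. By distance from the wide cluster they lay 2345 to 3963 bp downstream, within the 4489 bp of Fabp4-201. The narrowest of them fell in intron 3, while the uncertainty of the start left the wider ones across an edge of exon 2 and of exon 3.

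Cd36, which encodes a fatty acid translocase of the cell surface, had start sites in 3 separate places over 53267 bp of the minus strand of chromosome 5. The first in the direction of transcription was a cluster of 173 bp from 17394567 to 17394740. The next, of 147 bp from 17355501 to 17355648, lay 38919 bp farther on. The last place held 5 clusters between 17341473 and 17341799, of which the one farthest downstream spanned 82 bp and the others 2 to 12 bp. GENCODE lists 5 Cd36 transcripts with a consensus coding sequence, all of 472 residues.

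The spacings at Cd36 fit those transcripts. The distance from Cd36-203 to Cd36-204 is 38955 bp in the annotation, within the 38919 to 39239 bp between the first and second clusters. That from Cd36-204 to Cd36-201 is 14096 bp, within the 13946 to 14175 bp between the second cluster and the cluster of 82 bp. However, Cd36-202, at 39018 bp from Cd36-203, fits the second cluster too. From Cd36-202 to Cd36-201 the distance is 14033 bp, which also falls within the 13927 to 14076 bp to the 2 bp cluster at 17341572. Distances from the second cluster to the start of Cd36-206 likewise fit more than 1 cluster of the last place. Measured from the first cluster, the start of Cd36-201 at 53051 bp falls within the 53012 to 53267 bp to the cluster of 82 bp, but also within the spacings to those of 12, 5 and 2 bp (52875 to 53060, 52926 to 53104 and 52993 to 53168 bp), so that distance does not single out 1 cluster of the last place. All 5 clusters of the last place fell in intron 1 of Cd36-204 by distance.

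**Figure D2:**
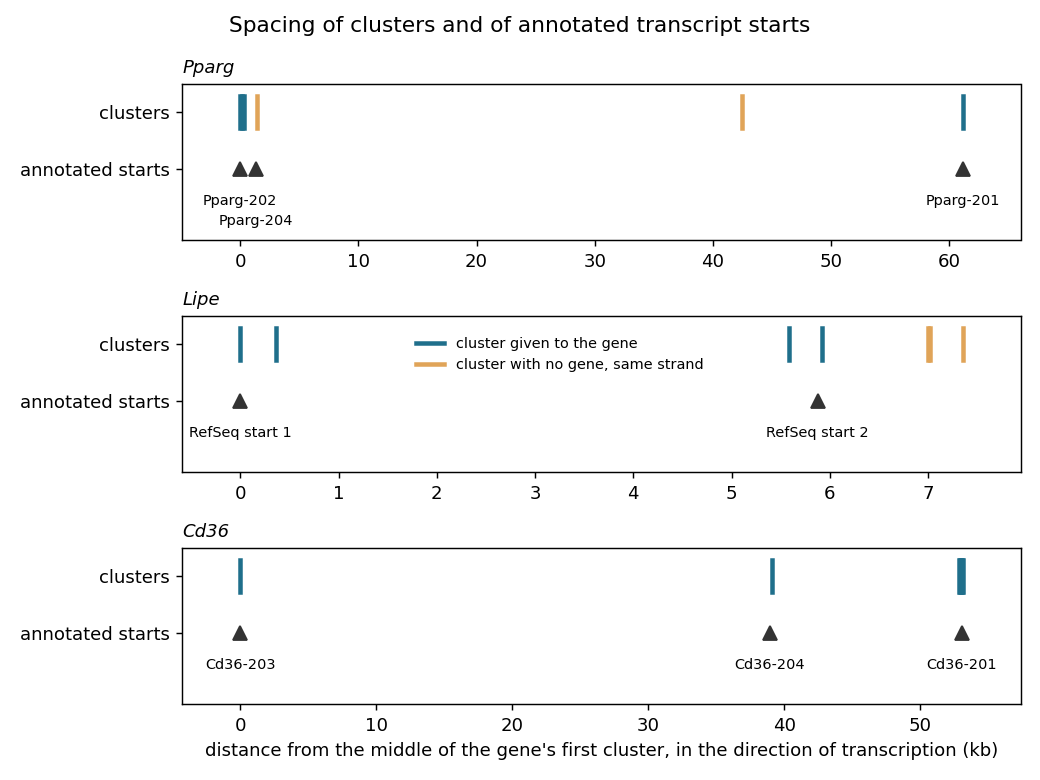
Positions of clusters along Pparg, Lipe and Cd36 (vertical marks, upper row of each panel) and of annotated transcript starts (triangles, lower row), in kb from the middle of the gene's first cluster. Triangles are GENCODE starts for Pparg and Cd36 and RefSeq starts for Lipe. Cd36-202 and Cd36-206 are left out, as are the GENCODE starts of Lipe, whose distances matched no pair of clusters. The first triangle of each panel is set at 0, so the distances between triangles can be read against the clusters: Pparg-201 lies 61115 bp after Pparg-202, and Cd36-204 lies 38955 bp after Cd36-203.

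Plin1 and Cidec encode proteins of the lipid droplet coat, and their clusters lay within 766 and 1298 bp. Plin1, which encodes perilipin, the main guard of the adipocyte droplet, had a cluster of 178 bp at 86877625 to 86877803 of chromosome 7, minus strand, and one of 25 bp from 86877037 to 86877062. Their points lie 563 to 766 bp apart, which holds the 616 bp between the starts of Plin1-206 and Plin1-202 and the 605 bp between Plin1-201 and Plin1-202. All 3 transcripts code for 517 residues. The Plin1 promoter held the C/EBP core at 58 and at 187 bases before the RefSeq start.

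Cidec, which encodes a protein that fuses droplets into large ones, had 7 clusters in chromosome 6 (minus strand), and none of them was wide. The widest spanned 14 bp, from 113385743 to 113385757, and 10.5% of named genes had a narrower widest cluster. Narrower ones, of 8, 3 and 2 bp, lay just upstream of it at gaps of 18, 6 and 8 bp. The other 3 spanned 3 or 4 bp and lay downstream, by distance in intron 1 of Cidec-202 for 2 of them and at the edge of exon 2 for the third. One of these, from 113384757 to 113384760, lay 983 to 1000 bp from the widest cluster, which holds the 996 bp between the 2 RefSeq starts of the gene. GENCODE gives 239 residues for Cidec-202, against 249 residues for Cidec-203, a transcript of lower support.

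**Figure D3:**
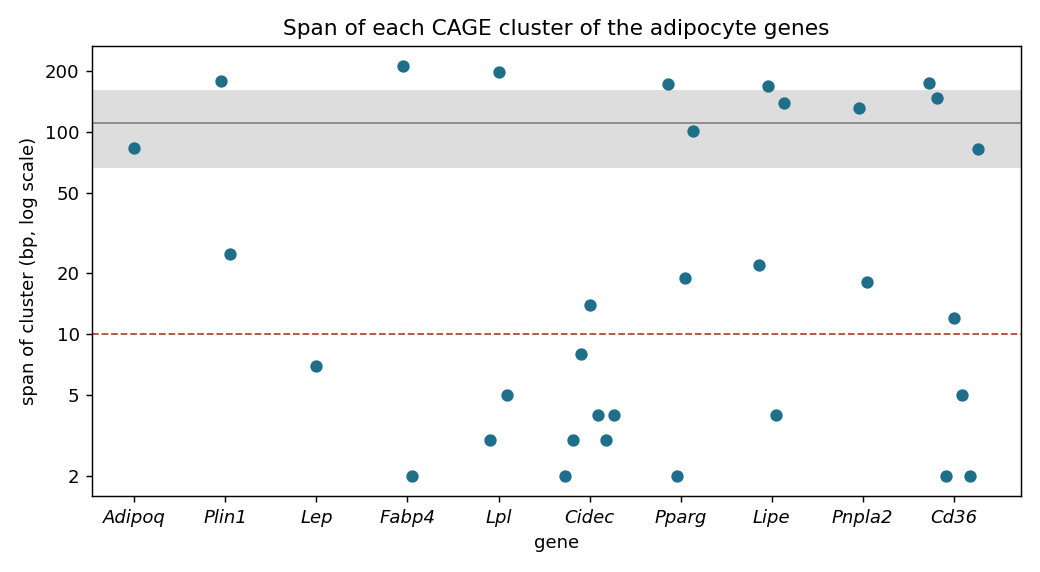
Span in bp (vertical axis, log scale) of every cluster of the 10 genes, each gene's clusters running from 5′ to 3′ within its column. The grey line and band give the median (110 bp) and quartiles (67 and 159 bp) of the widest cluster over all named genes, and the dashed line marks 10 bp; Lep at 7 bp and Cidec at 14 bp lie far under the band.

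Of the lipase genes, Lipe had 4 clusters in a pair of places on the minus strand of chromosome 7. Lipe encodes hormone-sensitive lipase (HSL). In transcription order, a cluster of 22 bp from 26181006 to 26181028 came first and one of 169 bp from 26180571 to 26180740 lay 266 bp downstream of it. After 5136 bp came a cluster of 4 bp, and then one of 138 bp from 26175030 to 26175168. The 5875 bp between the RefSeq starts of Lipe fits between the first cluster and the last, whose points lie 5838 to 5998 bp apart. It was larger than the spacing between the 169 bp cluster and the last, which lie 5403 to 5710 bp apart. The 6273 bp between the GENCODE starts of Lipe-201, which codes for 802 residues, and Lipe-202, which codes for 759, was larger than any spacing of the named clusters.

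The Lipe starts had different promoters. The window of the upstream start held GGGCGG on one strand or the other at 6 places in its 300 bases, 5 of them in the printed stretch and a pair of these overlapping, with CACGTG at 155 bases before the start. That of the downstream start held none of the 6 motifs. G and C made up 61.0% and 60.0% of the bases, so the windows were alike in base composition. An unnamed cluster of 28 bp on the plus strand lay 443 bp from the first Lipe cluster, from 26181471 to 26181499, and pointed away from the gene. Another of 2 bp on the plus strand lay from 26179306 to 26179308, between the Lipe places. Unnamed clusters on the strand of Lipe, of 19, 3 and 5 bp, lay 1013 to 1356 bp past the last one.

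Pnpla2, which encodes the adipose triglyceride lipase ATGL that starts lipolysis, had a cluster of 131 bp at 148641041 to 148641172 of chromosome 7, plus strand. A second cluster of 18 bp lay 2730 bp downstream, at a distance that crosses the edge of exon 4 of Pnpla2-203. Its neighbours within 5000 bp carried names. Rplp2, the gene of a ribosomal stalk protein, had a cluster 4094 bp upstream, and Efcab4a had clusters 3058 and 3695 bp past the last cluster of Pnpla2. The Pnpla2 promoter was rich in G and C, at 65.3%, and held GGGCGG at 109 and 26 bases before the start.

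Across the genes, neighbouring clusters mostly lay less than 1000 bp apart, a share that was not computed over all named genes. Neighbouring clusters of a gene left 23 gaps, of which 9 were at most 100 bp and 5 were at least 1000 bp, with a median of 188 bp. Those 5 gaps belonged to Pparg, Lipe and Pnpla2 with 1 each and Cd36 with 2. After neighbours within 100 bp were joined, the 10 genes had 24 clusters, and 4 of the genes kept 3 or more, against 19.5% of all named genes. The 4 were Cidec, Pparg, Lipe and Cd36, and just 1 of the clusters of Cidec spanned at least 10 bp. Of 53 further adipocyte genes with a cluster, 37.7% kept 3 or more, so this is not particular to the 10.

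The motif counts were set beside those of all promoters. RefSeq promoters were matched by symbol for 8 of the 10 genes, 12 promoters in all. Fabp4 and Lpl were not matched. TTGCNNAA was in 4 of the 12 (Plin1, Lep, 1 of Cidec and 1 of Pparg), against 10.8% of all 32851 promoters. GGGCGG was in 6, against 35.7% of all, CCAAT in 4, against 37.4%, TATAAA in 1, against 13.6%, and CACGTG in 1, against 7.15%. The PPAR-RXR direct repeat was in none, and in 0.0396% of all. Several of the promoters belong to 1 gene, and a match of letters is not a site of binding.

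The exact letters TATAAA were also looked for near the start. None of the 12 promoters held TATAAA on the strand of the gene with its first base 20 to 40 bases before the start, and 1.99% of all promoters did. Among genes with 1 RefSeq promoter and a cluster, the widest cluster had a median of 51 bp for the 217 genes with TATAAA there, against 116 bp for the 8112 genes without it. The quartiles were 11 and 112 bp with it and 77 and 162 bp without it, so the groups overlapped. These values describe genes and not mice. Other spellings of a TATA box were not searched. The printed sequences of Lep and of the middle Pparg start both hold TATAAG on the strand of the gene before the start, 1 letter from TATAAA. The narrow cluster of Lep and the middle Pparg start can therefore not be called starts without a TATA box. The Cidec promoters are not printed, and the narrow clusters of Cidec cannot be called so either, since other spellings were not searched.

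Other genes of fat were almost all in the table. Of 55 further genes of adipocytes, taken from a list of hormones, droplet proteins, lipid enzymes, transport proteins and transcription factors, 53 (96.4%) had a cluster, each with at least 1 of 10 bp or more. Over all protein-coding genes of RefSeq, 63.3% had one. Every sebaceous, endothelial, macrophage and skeletal muscle marker looked up had one too, so the high share is not particular to genes of fat. Those of the 55 without a cluster were Cideb, a relative of Cidec known from liver, and Ebf2, a factor of adipocyte precursors. The 53 genes had a median of 4 clusters, and their widest cluster had a median of 118 bp. All 10 genes of adipocyte precursors had a cluster, and 8 of them one of 10 bp or more. Of 8 genes tied to heat-producing fat, 7 had a cluster, and Ucp1, the uncoupling protein that defines this fat, had none under that symbol among those analysed here. Whether a gene without a cluster was silent or below the unstated limit for calling clusters was not tested.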

How the data were processed

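CAGE libraries were made from total RNA of facial skin with a commercial kit, per the labels' protocols. Alignment used BWA and HISAT2 on build mm9, per the submitters' processing notes, which give no versions. How clusters were formed and tied to genes is not given in the sources used here. The deposited table gives each cluster's position and gene symbol as text, and these alone were used. Its 8 columns of values match no label and were not used, so depth and its precision were not analysed here, and the planned group tests were not run.

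Span is end minus start as deposited, and whether starts count from 0 or 1 is not stated. The 10 genes and all lists were chosen with earlier results of these data known. The genes named are the 10, list genes with no cluster, and neighbours within 5000 bp. Older symbols of 1 gene were matched through RefSeq (GRCm38.p6). Annotated starts came from GENCODE M21 on GRCm38. Distances within a gene were compared with distances between clusters, and no coordinate was moved between builds. A distance matched where it lay between the smallest and largest distance of points in 2 clusters. Pairs of GENCODE starts at most 63 bp apart were left out of this matching, while no such limit was set for RefSeq starts. For exons and introns, distance was counted from the cluster taken to hold the start of the named transcript. Joining of clusters and motif search were tested on simulated data. Python 3.11.15, pandas 2.3.3 and matplotlib 3.10.9 were used.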

Additional observations from a re-analysis of the deposited data

How the results depend on the processing

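Counting only clusters of at least 10 bp lowered the clusters of the 10 genes from 33 to 18 and those of them with at least 2 from 8 to 5, while 9 of the 10 genes still had a cluster. Over all 16094 named genes, 33.7% had at least 2 such clusters and 14678 genes had 1 or more. Of the 53 further adipocyte genes, 52.8% had at least 2 and all had 1 or more. Joining neighbours within 100 bp gave 24 clusters and 7 genes with 2 or more, and counting rows in place of positions changed none of these counts. With promoters of 100 bases before to 50 after the start, the 12 promoters held TTGCNNAA in 3 (4.79% of all promoters), GGGCGG in 4 (28.8%), CCAAT in 3 (23.4%), TATAAA in 1 (6.94%) and CACGTG in 0 (4.35%). The place of TATAAA was a choice made after seeing the data. The alternatives planned for a comparison of groups (tools, scaling, filters, pseudocounts, libraries left out, the strongest cluster alone) were not run, as the columns of values were not used. No paired analysis was possible because no column could be tied to a sample or its replicate number. A distance match rests on wide clusters and does not show which transcript was made.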
